A study of Mus musculus with 6 samples.

Results

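Large intergenic noncoding RNAs (lincRNAs) are long, usually spliced and polyadenylated transcripts from the stretches between protein-coding genes. Many mouse lincRNAs were first mapped from chromatin marks of active promoters and transcribed bodies, which show where a transcript lies but not which DNA strand it is read from. An exon found in this way can be covered with a probe for either strand. In principle a transcript then lights up the probe of its own strand. Signal on the other probe does not by itself show that the opposite strand is transcribed. In the heart, as in other tissues, lincRNAs are known for low and tissue-restricted levels, and several take part in gene regulation in the nucleus.

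The Arraystar Mouse LncRNA Array v2.0 carried 3457 such lincRNA exon probes among 59709 non-control probes. They were chosen by their probe names alone, which consist of the mark MM9LINCRNAEXON, an exon number, a strand sign and _P1. There were 1728 plus-strand and 1729 minus-strand probes for 1729 exon numbers between 10002 and 12127, and 1728 exons had a probe on each strand. Exon 10195 had a minus-strand probe only. The files give neither the sequence nor the position of these probes and pair them with no transcript, so each is named here by its exon number and strand. Whether consecutive numbers (1533 neighbours in all) belong to the same transcript is not given in the sources used here.

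The cardiac biopsies formed 3 groups of 2 arrays each. Mice 004 and 008 underwent ischemic preconditioning (IPC), in which the left coronary artery was reversibly tied, with 4 cycles of 4 min of ischemia and 4 min of reperfusion by the labels and a last reperfusion of 30 min. From each of them an array was made of the area at risk (IPC AAR), the tissue supplied by the tied artery, and of the remote myocardium (IPC RM), which by the methods was cut from the right ventricle. Mice 012 and 013 had a sham procedure, and their AAR was profiled (sham AAR). By the labels all mice were females of strain C56BL7 aged 12 months, whereas the methods name C57BL6 mice of both sexes, and the methods also give longer cycles. IPC AAR and IPC RM differ in the place in the heart as well as in ischemia, remote myocardium of sham mice was not analysed here, and fewer cells of a type and less RNA per cell cannot be told apart in such bulk tissue. None of 27 marker genes of cardiac and other cell types has a probe that the files name, so the makeup of the biopsies was not checked.

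Several features of the arrays bear on every value below. Slide 1 held the 4 IPC arrays and slide 2 the sham arrays, so treatment and slide cannot be told apart. In earlier results of these data Xist, a transcript of the inactive X chromosome, set the RM arrays apart from every AAR array. The paper lists it as higher in the AAR than in the RM. AAR and RM with the same mouse number are nevertheless labelled as the same female animal. Whether both biopsies came from that animal, or from animals of the same sex, was not tested. Among the 1744 lincRNA exon probes well above background on all 6 arrays, the replicates of a group differed by a median of 0.14 on the log2 scale in IPC AAR, 0.14 in IPC RM and 0.37 in sham AAR, where 8.43% differed more than 2-fold. Precision is limited by the number of arrays: for a single probe with 2 arrays against 2, the smallest p of an exact two-sided permutation test is 0.333.

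Detection was read from the scanner software's flag for spots well above background. In IPC AAR, 2170 (62.8%) and 2272 (65.7%) of the lincRNA exon probes were well above background in mice 004 and 008. The IPC RM arrays with the same mouse numbers had more, 2541 (73.5%) and 2633 (76.2%). The sham AAR arrays stood apart from each other, with 1835 (53.1%) in mouse 012 and 2297 (66.4%) in mouse 013. These shares lay below those of all non-control probes on every array (from 61.0% in sham 012 to 80.5% in the RM of mouse 008), but the order of the arrays was the same for both sets. On all 6 arrays, 1744 members (50.4%) were well above background, against 57.9% of all non-control probes. A further 615 (17.8%) were not well above background on any array, and 1098 were so on some arrays only.

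The strands differed slightly in detection. Minus-strand probes were well above background more often than plus-strand probes on 6 of 6 arrays. In the IPC AAR the minus-strand shares were 65.2% and 68.5%, against 60.4% and 62.9% for the plus strand. In the IPC RM they were 77.6% and 80%, against 69.4% and 72.3%. In the sham AAR they were 56.5% and 71.2%, against 49.7% and 61.7%. Of the 615 probes never well above background, 367 were plus-strand and 248 minus-strand probes.

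**Figure D1:**
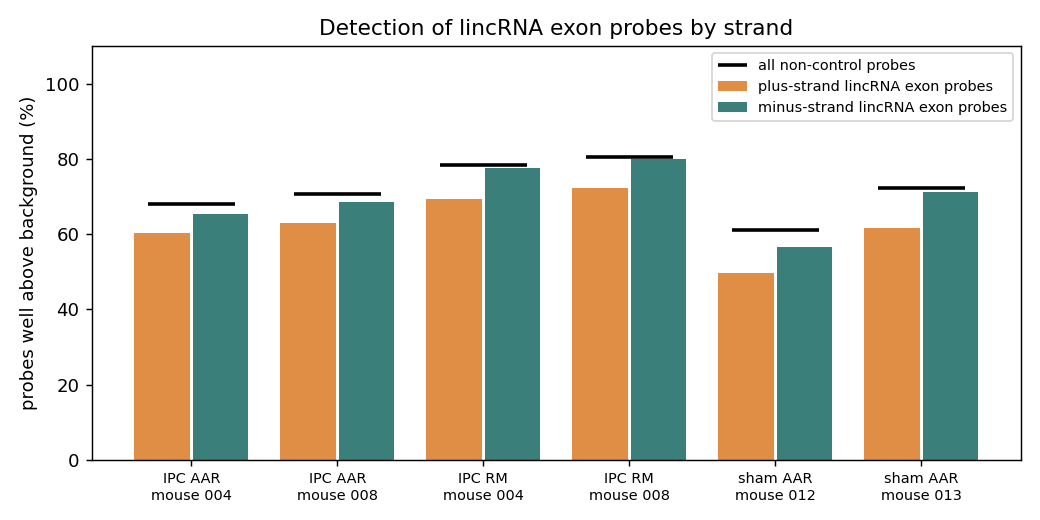
Share of lincRNA exon probes well above background (percent, vertical axis) on each of the 6 arrays, with plus-strand probes in orange, minus-strand probes in green and all non-control probes as a black line. The minus-strand bar is the taller on each array, both IPC RM arrays stand above both IPC AAR arrays, and the sham arrays of mice 012 and 013 differ most within a group.

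For the 1728 exons with a probe on each strand, both strands were well above background at 701 and 760 exons in IPC AAR, at 937 and 1009 in IPC RM and at 488 and 777 in sham AAR. The plus strand alone was well above background at 342 and 327 exons and the minus strand alone at 426 and 425 in IPC AAR. Neither strand was detected at 259 and 216 exons there, and at only 125 and 105 in IPC RM. The share of exons with both strands lay close to the product of the shares of the separate strands on each array, for example 40.6% against 39.4% in IPC AAR of mouse 004 and 58.4% against 57.9% in IPC RM of mouse 008. Whether signal on both strands came from transcription of both was not tested.

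**Figure D2:**
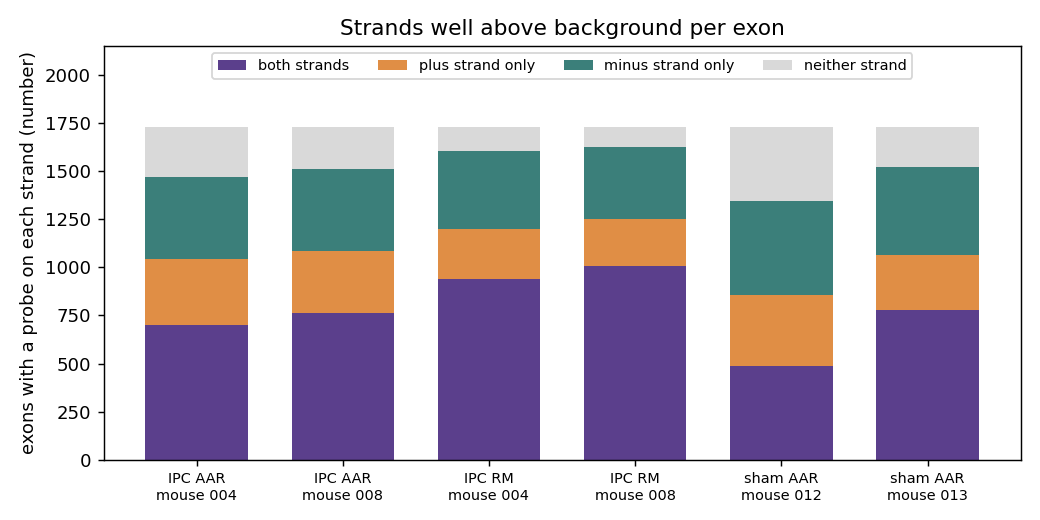
Number of the 1728 exons with a probe on each strand (vertical axis) whose plus and minus strands were both, singly or not well above background on each of the 6 arrays. Exons with both strands number 1009 in IPC RM of mouse 008 and 488 in sham 012, where they are about as many as the 489 with the minus strand only.

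Over all 6 arrays together, both strands were well above background at 451 exons (26.1%, against a product of 25.4%). At 178 exons the minus strand was detected on every array and the plus strand on none, and at 115 exons the reverse held. At 56 exons neither strand was detected on any array, and the remaining 928 were mixed. Where neighbouring exon numbers were both of this strictly single-stranded kind (54 neighbours), they were on the same strand in 32 cases (59.3%), against 51.1% given by the shares of the strands. Other probes on the array made in strand pairs were detected on both strands less often by count. Ultraconserved regions, stretches of DNA identical between mammals, had both strands at 51 of 481 (10.6%, product 8.04%), and the mouse counterparts of human lincRNAs had both at 72 of 608 (11.8%, product 10%). Probes named mouselincRNA had both at 43 of 340 (12.6%, product 11.9%). These shares are given as a description with no test.

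Levels are given as log2 intensity after quantile normalization over the 6 arrays, and since a reading also depends on the probe, the readings of different probes give no order of transcript levels. The median over the lincRNA exon probes was 5.14 and 5.08 in IPC AAR, 4.86 and 4.89 in IPC RM and 4.97 and 4.92 in sham AAR. Several probes gave very high readings on every array. The minus-strand probe of exon 11837 read between 17.83 and 18.16 over the 6 arrays, and the plus-strand probe of exon 11400 between 17.54 and 17.71. No spot was saturated. The 10 probes with the highest readings, 5 on each strand, were exons 11400, 11341, 10504, 10465 and 10151 on the plus strand and 11837, 10315, 10608, 12032 and 12118 on the minus strand. None of them was called in the comparisons below with quantile normalized values, but with each array scaled to its 75th percentile 8 of the 10 were called higher in the AAR than in the RM, with log2 differences from 0.72 to 1.48 over the 10, so no direction is given for these probes.

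IPC AAR was first compared with IPC RM, which sets tissue exposed to brief ischemia beside tissue of another region labelled as from the same mice. Region and ischemia cannot be told apart in this comparison. A difference of animal or sex between the biopsies cannot be set aside either, given the readings of Xist described above. Of 2499 lincRNA exon probes tested, 173 were called higher in the AAR (6.92%, against a background of 7.29% of all probes tested) and 163 lower (6.52%, against a background of 13.3%). A call is an adjusted p below 0.05 from limma, with Benjamini-Hochberg adjustment over 46232 probes, and a fold change above 2. The share called higher was near that of the whole array, and the share called lower was smaller than that of the whole array. Only probes well above background throughout at least 1 of the groups were tested, which left out 958 members. The median log2 difference of the tested members was 0.31 (0.20 over all probes), and 70.2% of them were positive (61.1% over all probes).

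By strand, 72 plus-strand probes were called higher and 48 lower among 1172 tested (10.2% called in either direction). On the minus strand the counts were 101 higher and 115 lower among 1327 tested (16.3% called). The medians were 0.37 for the plus and 0.27 for the minus strand on the log2 scale. Minus-strand probes were called more often than plus-strand probes under each alternative run for this comparison. Of the other classes, 17.5% of ultraconserved region probes, 5.36% of human lincRNA counterparts, 6.95% of probes named mouselincRNA and 20.6% of all probes were called. Called lower were 13.3% of ultraconserved region probes, 1.58% of human lincRNA counterparts and 2.14% of probes named mouselincRNA. Among the members this share was 6.52%.

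Signal over background moved with the direction of these calls. Of the 163 probes called lower, 90 were not well above background on either AAR array, and 25 of them sat at the lowest value of both AAR arrays. Of the 173 called higher, 2 were dim in this way on both RM arrays. Such counts over all called probes are not given here. The IPC AAR arrays held 618 and 555 members at the lowest value and the IPC RM arrays 377 and 300, whereas no member shared it on the sham arrays. Over all 59709 probes these counts were 9395 and 8133 in IPC AAR and 5689 and 4850 in IPC RM. Values at that floor have no order, and their agreement between replicates is not a measured spread. Among the 2037 members well above background on all 4 arrays, 159 were higher (7.81%) and 63 lower (3.09%), against 8.18% and 10.1% of all probes of that kind. Of the 6135 lower calls among all probes, 3914 were of that kind, beside 63 of the 163 among the members. Well above background on both RM arrays and on neither AAR array were 238 members (6.88%, and 6.77% of all probes). Of these, 147 were on the minus strand (8.5% of its probes) and 91 on the plus strand (5.27%). The reverse held for 5 members (0.145%, and 0.162% of all probes), so this imbalance was shared by the whole array. The part of signal over background in the lower calls was not tested beyond these counts.

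Counts depended on single arrays. Without the RM array of mouse 004 the calls were 71 higher and 81 lower, and without the RM array of mouse 008 they were 69 and 87. Without the AAR array of mouse 008 the higher calls rose to 310. In each such fit the spread of the remaining single array was taken from the other group.

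Of the probes called higher and well above background on all 4 arrays, the plus-strand probe of exon 11054 had the largest fold. It read 7.45 and 7.77 in IPC AAR of mice 004 and 008 and 3.91 and 3.95 in IPC RM, and on the sham arrays, where it was not well above background, 3.71 and 1.52. Both AAR arrays of the IPC mice thus lay above all other arrays. Between IPC AAR and IPC RM it differed by 3.68 on the log2 scale, with a standard error (SE) of 0.142 (adjusted p = 0.00132 from limma), so that the level was 12.8-fold higher. The size depended on the background correction, and with normexp on the median spot signals it was 3.30-fold. Of the 20 probes with the largest folds in either direction, described here and below, 20 kept their direction under that correction and 16 had a fold more than 1.5 times smaller, with folds from 1.69 to 13.7.

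The plus-strand probe of exon 10484 read 8.91 and 8.96 in IPC AAR, 5.89 and 5.62 in IPC RM and 6.17 and 5.02 in sham AAR. Its log2 difference was 3.18 (SE 0.125, adjusted p = 0.00134 from limma). The sham arrays were on the level of the RM, and the groups IPC AAR and sham AAR did not overlap. The minus-strand probe of exon 10002 had the same arrangement at a higher reading, with 9.72 and 9.83 in IPC AAR, 7.51 and 7.48 in IPC RM and 7.71 and 7.80 in sham AAR. The SD of its replicates was 0.0781 in IPC AAR, and the log2 difference of 2.28 between IPC AAR and IPC RM (SE 0.0832, adjusted p = 0.00123 from limma) was far larger.

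The plus-strand probe of exon 11316 was arranged otherwise. It read 8.69 and 8.83 in IPC AAR and 6.20 and 6.04 in IPC RM, but 9.06 and 9.30 in sham AAR. Here both RM arrays stood apart below all AAR arrays, with a log2 difference between IPC AAR and IPC RM of 2.64 (SE 0.107, adjusted p = 0.00139 from limma). The RM arrays were again the lowest for the minus-strand probe of exon 10179, with 8.48 and 8.64 in IPC AAR, 6.43 and 6.27 in IPC RM and 8.17 and 7.71 in sham AAR, and a log2 difference between IPC AAR and IPC RM of 2.21.

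For the minus-strand probe of exon 10114, next to exon 11054 in fold, the AAR arrays differed widely. It read 6.89 and 9.14 in IPC AAR and 4.58 and 4.63 in IPC RM, with a log2 difference of 3.41 (SE 0.859, adjusted p = 0.0456 from limma). The call was lost with the mouse as a block (adjusted p = 0.0548). The plus-strand probe of exon 10416 was among the closest between replicates, with 6.42 and 6.45 in IPC AAR and 4.15 and 4.26 in IPC RM. The other plus-strand probes among the 10 with the largest fold were exons 10432, 11349 and 10204, with log2 differences of 2.57, 2.28 and 2.25. With the mouse as a block exon 10204 was not called (adjusted p = 0.0567 from limma). Under normexp exons 10416 (1.83-fold), 11349 (1.69-fold) and 10204 (1.85-fold) fell under the fold required. Exons 10114 (3.82-fold) and 10432 (2.18-fold) kept it.

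Of the probes called lower and well above background on all 4 arrays, the minus-strand probe of exon 11297 had the largest fold. It read 4.86 and 4.83 in IPC AAR, 9.40 and 9.45 in IPC RM and 9.14 and 9.25 in sham AAR. Both IPC AAR arrays stood far below the others, which lay close together. IPC AAR minus IPC RM gave -4.58 (SE 0.0739, adjusted p = 0.000723 from limma), so that the level was 23.9-fold lower (8.51-fold with normexp).

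The plus-strand probe of exon 11021 read 7.47 and 7.74 in IPC AAR, 11.83 and 11.77 in IPC RM and 9.78 and 11.39 in sham AAR, with a log2 difference of -4.19 (SE 0.128, adjusted p = 0.000994 from limma). The sham arrays lay between the IPC groups and differed from each other. The neighbouring exon 11020, also on the plus strand, read 7.17 and 7.23 in IPC AAR and 10.70 and 10.63 in IPC RM, while the sham arrays read 7.25 and 9.49. The sham array of mouse 012 was thus on the level of the IPC AAR. Exon 11022 on the plus strand, at 12.55 and 12.51 in IPC AAR against 13.74 and 13.78 in IPC RM, was lower as well, with a log2 difference of -1.23, which became -0.57 and was not called with 75th percentile scaling.

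Exons 11020 to 11022 formed a run of 3 consecutive numbers with a call in the same direction, as did 11075 to 11077 (lower) and 12119 to 12121 (higher). Runs were counted with a call on either strand, so the strand may change along a run. In the first run each number was called on the plus strand. The calls alternated between strands in the others, with 11076 on the minus and 12120 on the plus strand between calls on the opposite strand. The calls of the first run held under most alternatives, with 0 to 2 lost for each of its probes, but in the other runs exon 11076 on the minus strand lost its call under 8 of 13 alternatives, exon 11077 on the plus strand under 5 of 13, and exons 12120 (plus strand) and 12121 (minus strand) each under 7 of 14. With the mouse as a block, exon 11076 on the minus strand (adjusted p = 0.0861 from limma) and exon 12120 on the plus strand (adjusted p = 0.0768) were not called. Such runs were rare. Of the probes called lower, 116 exon numbers stood alone, 15 runs had 2 numbers and 2 had 3, and of those called higher the counts were 140, 13 and 1. The changes of neighbouring numbers on the same strand had a Pearson r of 0.0826 on the plus strand (702 neighbours) and 0.0908 on the minus strand (926 neighbours), across probes of the same arrays, as a description.

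The other lower probes of this kind with a large fold were the minus-strand probes of exons 12016, 11384, 11256 and 11344 and the plus-strand probes of exons 10317, 12016 and 11919. Their log2 differences between IPC AAR and IPC RM ran from -3.05 (exon 12016, minus strand) to -2.48 (exon 11919, plus strand). On the minus strand exon 11344 read 5.27 and 5.26 in IPC AAR, 7.98 and 7.85 in IPC RM and 7.27 and 7.70 in sham AAR. For 35 of the 63 lower probes of this kind both sham arrays were nearer the IPC RM mean, and for 5 both were nearer the IPC AAR mean. For the 159 higher probes these counts were 60 and 37. At the remaining 23 lower and 62 higher probes the sham arrays were split. Shares over all called probes are not given here, so these counts show nothing particular to lincRNA exon probes. Slide, region, animal and treatment cannot be told apart in these counts.

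**Figure D3:**
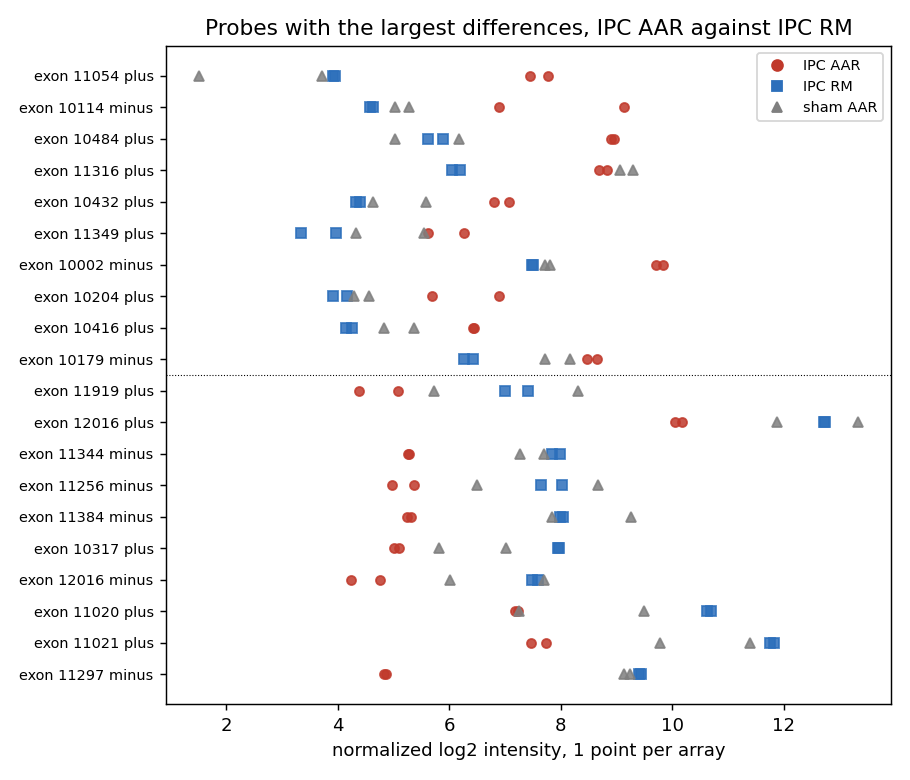
Normalized log2 intensity on each of the 6 arrays (horizontal axis, 1 point per array) for the 10 probes of largest fold in each direction between IPC AAR (red circles) and IPC RM (blue squares), with sham AAR as gray triangles. Probes were selected so that both red circles lie to the right of both blue squares above the dotted line and to the left below it. Sham pairs such as those of exon 11919 are widely spread.

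The largest fitted differences were found where the AAR reading was not well above background. For these probes only a bound on the fold can be given, for which a dim reading was raised to the lowest signal among probes well above background on its array (4.13 and 3.88 in IPC AAR). The minus-strand probe of exon 11201 read 2.79 and 2.98 in IPC AAR and 10.97 and 10.85 in IPC RM. It was at least 120-fold lower in that group than in IPC RM (adjusted p = 0.000723 from limma). The probe passed the filter only through its IPC RM readings, and this p draws on the spread of AAR readings that were not well above background. Its sham arrays read 4.20, not well above background, and 10.27, so that each was nearer a different IPC group. Others of this kind were the minus-strand probe of exon 10811, at the floor on both AAR arrays and at 6.53 and 6.50 in IPC RM (at least 5.70-fold lower), and the plus-strand probe of exon 11777, at 1.41 and 2.34 against 7.07 and 6.82 (at least 7.68-fold lower). On the minus strand, exons 11493 and 11387 were at least 4.26-fold and 6.98-fold lower. In the other direction, the plus-strand probe of exon 11933 and the minus-strand probe of exon 11806 were dim on both RM arrays and at least 2.62-fold and 3.08-fold higher in IPC AAR. These bounds hold for the scanner's processed signals only. With normexp correction of the median spot signals and an offset, the log2 differences were -4.73 for exon 11201, -1.33 for exon 10811, -1.51 for exon 11777, -1.36 for exon 11387 and -1.09 for exon 11493, and 0.42 for exon 11933 and 0.32 for exon 11806, each smaller than its bound of 6.91, 2.51, 2.94, 2.80, 2.09, 1.39 and 1.62.

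A further 12 higher and 10 lower calls were dim on a single array of a group. The examples given here were chosen after their values were seen. Exon 11482 on the minus strand read 3.87, not well above background, and 4.21 in IPC AAR against 7.05 and 6.85 in IPC RM. Its log2 difference was -2.91 (SE 0.165, adjusted p = 0.00242 from limma), and -1.30 with normexp. The probe passed the filter only through its IPC RM readings, and this p draws in part on the dim AAR reading.

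The pairs of probes made it possible to ask whether both strands of an exon changed alike. Both strands were tested at 909 exons, and the within-array difference between the plus and the minus strand was compared between IPC AAR and IPC RM. At 154 exons (16.9%) the strands changed unequally, by an adjusted p below 0.05 from limma over the 909 pairs and a difference above 2-fold, and 319 pairs had an unadjusted p below 0.05. The plus strand had the more positive change at 97 of them and the minus strand at 57. With the mouse as a block, 61 pairs were unequal, of which 60 were also called without it. Without either RM array no pair was unequal, with 189 and 186 at an unadjusted p below 0.05 in limma, and without the AAR array of mouse 008 there were 264. Of the 154 pairs, 81 had both strands well above background on all 4 arrays (47 with the plus and 34 with the minus strand more positive), whereas 61 had a strand dim on both arrays of a group, where the size of the difference depends on the background.

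Across these exons the changes of the strands were almost unrelated. Pearson's r of the log2 differences was 0.0825 and Spearman's rho 0.0574 over 909 exons, and 0.122 and 0.081 over the 618 with both strands well above background on all 4 arrays. These values are across exons of the same 4 arrays, which are not independent replicates. The signs were the same at 59.4% of the exons. Both strands were called at 23 exons, only the plus strand at 70, only the minus strand at 119 and neither at 697. Of the 189 exons with a single called strand, 106 were among those with unequal change.

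**Figure D4:**
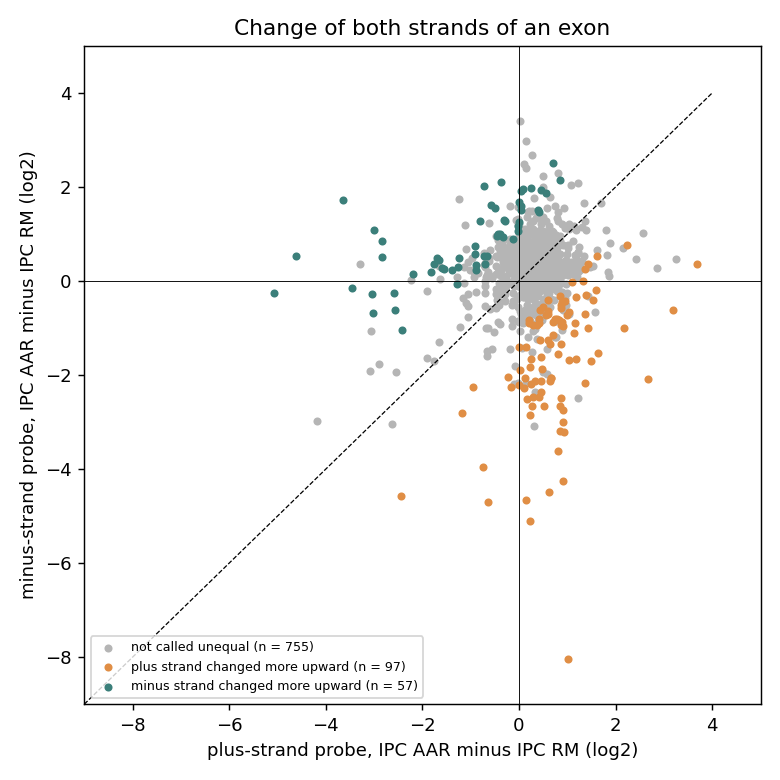
Log2 difference between IPC AAR and IPC RM of the plus-strand probe (horizontal axis) and the minus-strand probe (vertical axis) of 909 exons, with the dashed line where both are equal. Gray points were not called unequal, 97 orange points had the more positive change on the plus strand and 57 green points on the minus strand.

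Where both strands were called in the same direction, 11 exons were lower and 4 higher in the AAR. Exon 11996 was higher on both strands by nearly the same amount. Its plus-strand probe read 13.04 and 13.35 in IPC AAR, 11.50 and 11.47 in IPC RM and 12.24 and 12.32 in sham AAR. Its minus-strand probe read 8.59 and 8.77, 7.06 and 6.99, and 7.50 and 7.49 in the same groups. The log2 differences between IPC AAR and IPC RM were 1.70 and 1.66, and the sham arrays lay between the IPC groups on both strands. Exons 11765, 11621 and 11063 were the other exons higher on both strands, with log2 differences between 1.04 and 1.81. The minus strand of exon 11765 and the plus strand of exon 11621 were well above background on only 1 RM array. Under normexp exon 11996 differed by 1.70 and 1.27 on the plus and minus strand. Exons 11765 (1.11 and 0.19), 11621 (0.33 and 0.51) and 11063 (0.36 and 1.04) then fell under the fold required on at least 1 strand.

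Exon 11297, whose minus strand was described above, was lower on both strands. Its plus-strand probe read 11.42 and 11.48 in IPC AAR, 13.92 and 13.89 in IPC RM and 13.29 and 13.79 in sham AAR, with a log2 difference of -2.45 (SE 0.0752, adjusted p = 0.000994 from limma). The minus strand fell by more, and the difference between the strands was called (2.13 on the log2 scale, adjusted p = 0.00975 from limma). Exon 12016 was lower on both strands by amounts that were not called different, with log2 differences of -2.62 on the plus and -3.05 on the minus strand. Its plus-strand probe read 10.05 and 10.17 in IPC AAR, 12.72 and 12.75 in IPC RM and 11.89 and 13.33 in sham AAR. Exons 11021, 10419 and 12013 were also among the 5 with the largest change on both strands, and at least 1 strand of each was dim on both AAR arrays. The plus strand of exon 10419 was at the floor there and read 3.88 and 4.01 in IPC RM, which allows no bound on its fold. The plus strand of exon 12013 was not called with the mouse as a block (adjusted p = 0.0768 from limma). Under normexp exons 11297 (-2.42 on the plus and -3.09 on the minus strand) and 12016 (-2.43 and -1.55) kept the fold required on both strands. Exons 11021 (-3.78 and -0.81), 10419 (-0.36 and -0.50) and 12013 (-0.99 and -1.56) did not.

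At 8 exons the strands were called in opposite directions. For exon 11933 this is not established, since its minus-strand probe was at the floor in IPC AAR and read 3.30 and 3.67 in IPC RM, below the lowest detected signals of the AAR arrays, so that no decrease can be bounded. At 6 of them the plus strand was higher and the minus strand lower in the AAR, and at 2 the reverse held. Exon 11721 was of the latter kind. Its minus-strand probe read 11.01 and 10.94 in IPC AAR and 9.32 and 9.19 in IPC RM, a log2 difference of 1.72 (SE 0.0912, adjusted p = 0.00216 from limma). Its plus-strand probe sat at the floor on both AAR arrays and read 4.96 and 5.12 in IPC RM, at least 2.05-fold lower in the AAR on the scanner's processed signals. Under normexp the log2 difference of this probe was -0.57, smaller than that bound of 1.03. The sham arrays read 3.31 and 4.89 on the plus and 10.43 and 9.48 on the minus strand, so both strands of mouse 013 were nearer the IPC RM.

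Exon 12061 showed opposite change with both strands well above background on all 6 arrays. The plus-strand probe read 6.36 and 6.25 in IPC AAR, 5.24 and 5.08 in IPC RM and 5.37 and 5.08 in sham AAR. Its minus-strand probe read 9.27 and 9.28, 10.34 and 10.40, and 9.41 and 10.02. The IPC groups did not overlap on either strand, and the strands differed in their change by 2.24 on the log2 scale (adjusted p = 0.00975 from limma). With 75th percentile scaling the minus-strand difference of -0.99 was just under the fold required. Under normexp the plus-strand difference was 0.49, also under that fold, and the minus-strand difference was -1.02. Exon 10814 was likewise measured on both strands in all groups, with log2 differences of 1.64 on the plus and -1.54 on the minus strand (1.37 and -0.77 with normexp). Its plus-strand reading in IPC AAR differed between the mice, at 10.01 and 9.03, and was not called with the mouse as a block (adjusted p = 0.079 from limma), nor was that of exon 10653 (adjusted p = 0.0539). The minus-strand probe of exon 10653 was well above background on only 1 AAR array. Its log2 difference was -1.66, and -0.49 with normexp. The remaining exons of this kind were 11933, 10653, 11012 and 11462 (plus strand higher) and 11369 (minus strand higher).

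The largest fitted difference between the strands was that of exon 11201. Its minus-strand probe was at least 120-fold lower in the AAR on the scanner's processed signals, and 26.6-fold lower with normexp. Its plus-strand probe read 10.96 and 10.71 in IPC AAR, 9.50 and 10.13 in IPC RM and 10.68 and 10.29 in sham AAR. The plus-strand log2 difference of 1.02 (SE 0.27, adjusted p = 0.0506 from limma) was not called, although it was with 75th percentile scaling (1.22, adjusted p = 0.0154). The readings of the strands differed between the groups by 9.05 on the log2 scale (SE 0.36, adjusted p = 0.00344 from limma). The size, the SE and the p all rest on minus-strand values in the AAR that were not well above background. Exons 10811, 11514, 10866 and 10466 had the same arrangement, a minus strand not well above background in the AAR beside a plus strand with a log2 difference between 0.15 and 0.90. Exon 11514 on the plus strand read 7.58 and 7.57 in IPC AAR, 6.64 and 6.71 in IPC RM and 6.75 and 6.59 in sham AAR.

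The mirror image, with the plus strand lower, was found at exons 11721, 10071, 11777, 11369 and 10816. The plus-strand probe of exon 10816 read 3.54 and 3.67 in IPC AAR, 6.48 and 6.42 in IPC RM and 6.02 and 6.62 in sham AAR. On the scanner's processed signals it was at least 5.44-fold lower in IPC AAR than in IPC RM. Its minus-strand probe read 9.39 and 9.46, 8.64 and 8.50, and 9.18 and 8.62, with a log2 difference of 0.85 between IPC AAR and IPC RM, under the fold required for a call. Both sham arrays were nearer the IPC RM on the plus strand, and only mouse 013 was on the minus strand.

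**Figure D5:**
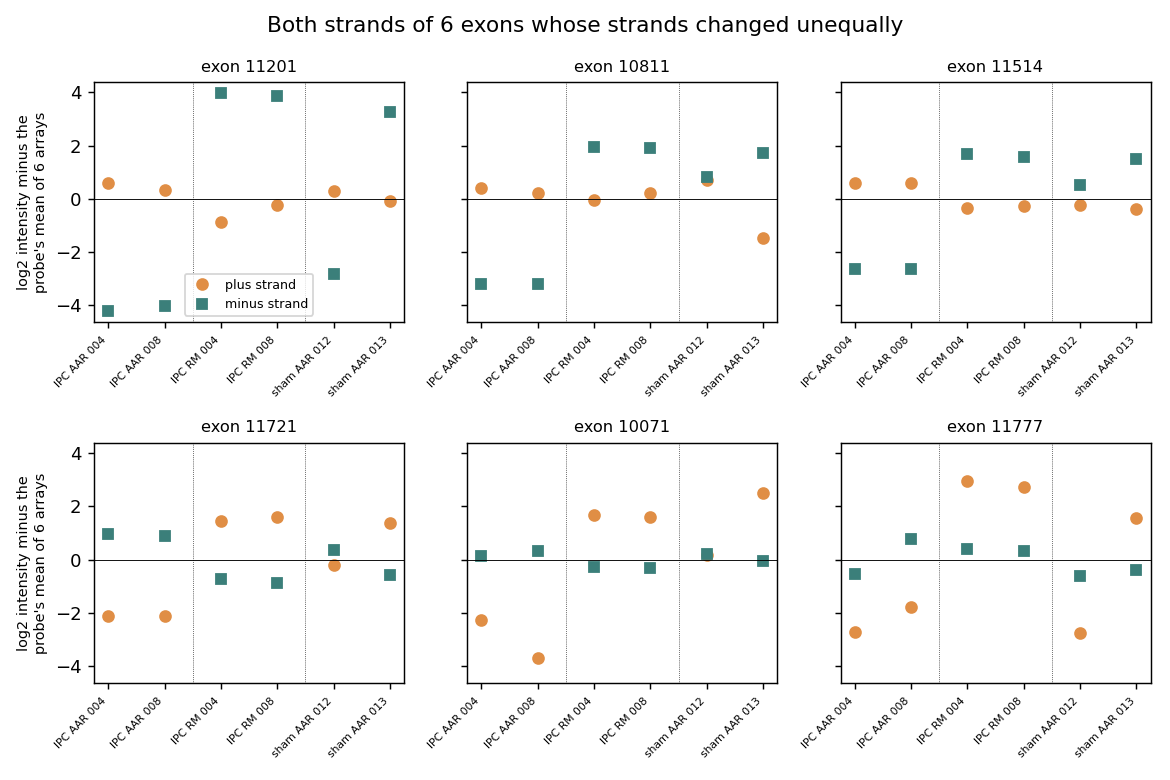
Log2 intensity of each probe minus its own mean over the 6 arrays (vertical axis) for both strands of 6 exons whose strands changed unequally between IPC AAR and IPC RM, with 1 point per array and strand. In the upper row the minus strand (squares) is low on both IPC AAR arrays while the plus strand (circles) differs less between the IPC groups, in the lower row the plus strand is the low one, and the minus strand of exon 11201 separates the sham arrays of mice 012 and 013.

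IPC AAR was next compared with sham AAR, which sets the same region with and without preconditioning side by side. It shares the IPC AAR arrays with the comparison above. Of 2098 members tested, 57 were called higher in IPC AAR (2.72%, background 2.78%) and 40 lower (1.91%, background 5.78%), and 622 had an unadjusted p below 0.05. By strand, 24 plus-strand probes were higher and 10 lower, and 33 minus-strand probes were higher and 30 lower. The counts rested on single arrays. Without the IPC AAR array of mouse 004 they were 3 higher and 2 lower, without that of mouse 008 they were 3 and 7, without the sham array of mouse 012 they were 261 and 117, and without that of mouse 013 the higher calls were 32. No filter on dim probes, and the methods' t-test, gave 0 calls in either direction.

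Of the probes called higher and well above background on all 4 arrays, exon 10484 on the plus strand (log2 difference 3.34, SE 0.432, adjusted p = 0.0325 from limma) and exon 10002 on the minus strand (2.02, SE 0.149, adjusted p = 0.0183) had the largest folds. Both were also called against the IPC RM. On the minus strand exon 10763 read 11.10 and 11.58 in IPC AAR, 9.33 and 9.77 in sham AAR and 10.56 and 10.80 in IPC RM. Its log2 difference to the sham AAR was 1.79 (adjusted p = 0.041 from limma), and against the IPC RM it was 0.66 and not called. The plus-strand probe of exon 10490 read 11.04 and 11.00 in IPC AAR, 9.84 and 9.37 in sham AAR and 10.95 and 11.43 in IPC RM. All 4 IPC arrays of this probe stood above both sham arrays, on the other slide. The other 6 of the 10 were exons 10570 and 11764 on the plus strand and exons 11122, 10637, 11337 and 10543 on the minus strand, with log2 differences between 1.40 and 1.76.

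Of the probes called lower, the minus-strand probe of exon 11297 again had the largest fold, with a log2 difference to the sham AAR of -4.35 (SE 0.146, adjusted p = 0.0138 from limma), and its plus strand was lower as well (-2.09, SE 0.229, adjusted p = 0.026). Exon 10038 on the minus strand read 4.34 and 4.38 in IPC AAR, 6.70 and 6.60 in sham AAR and 6.29 and 6.20 in IPC RM. The SD of its replicates was 0.0311 in IPC AAR and 0.0691 in sham AAR. IPC AAR minus sham AAR gave -2.29, for a probe selected so that these groups do not overlap. Exons 11384, 11344, 11029, 11505, 11101 and 10979 on the minus strand and exon 11831 on the plus strand completed the 10, with log2 differences between -3.28 and -1.97.

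No strand pair changed unequally between IPC AAR and sham AAR (0 of 652 by limma), although 120 had an unadjusted p below 0.05. A fit of all 6 arrays called 26 pairs. Between IPC RM and sham AAR, which differ in region, treatment and slide together, limma called 0 of 2486 members in either direction (background 0 and 0 of 46061 probes), with 418 at an unadjusted p below 0.05 (16.8%, and 16.4% of all probes). The median log2 difference of the members was 0.02. A fit of all 6 arrays called 4 higher and 8 lower. Without the sham array of mouse 012 there were 93 higher and 120 lower calls, and without that of mouse 013 there were 207 and 102, so the counts of 0 rested on both sham arrays being in the fit. Of 899 pairs, 0 were unequal by limma (128 at an unadjusted p below 0.05), and leaving out sham 012 or sham 013 gave 92 and 175. In detection, 281 members (8.13%) were well above background on both IPC RM arrays and neither sham array, and 3 the other way round, against 3898 (6.53%) and 32 of all 59709 non-control probes.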

How the data were processed

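Cardiac biopsies were analysed on 6 arrays, 2 for each of IPC AAR, IPC RM and sham AAR, with groups and mouse numbers taken from the labels. The authors hybridized Cy3-labeled cRNA to the Arraystar Mouse LncRNA Array v2.0, scanned it and extracted spots with Agilent Feature Extraction (version 11.0.1.1 per the file headers). Intensity was taken from the processed signals the authors deposited, from which that software had subtracted background, with no normalization between arrays. A table of the series has 6 columns of values whose names match no sample label, and it was not used.

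Each array held 62513 spots. Control and negative-control spots (2519) and 17 to 29 outlier spots per array were left out, which kept 59994 spots before outliers and 59709 probes. One value of each of 3 lincRNA exon probes was lost in this way, and a probe without a value on an array of a comparison was not tested there. Log2 values were averaged over the spots of a probe and quantile normalized over the 6 arrays, so a change shared by most probes cannot be seen. R 4.3.3 and limma 3.58.1 were used. Probes well above background throughout at least 1 group of a comparison were fitted on the 4 arrays of the comparison with lmFit and eBayes, with Benjamini-Hochberg adjustment over all of them, and called where the adjusted p was below 0.05 and the fold over 2. Strand pairs were tested in the same way on the within-array log2 difference of plus and minus probe, adjusted over pairs. Log2 differences are first minus second group.

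Named were the 10 probes of largest fold in each direction that are well above background on all 4 arrays with groups that do not overlap, the 5 largest dim on a whole group, up to 5 exons with both strands called in each pattern, the 5 most unequal pairs in each direction, the 5 brightest per strand, the example exon 11201 and the 3 longest runs. The members, lists and rules were chosen with earlier results of these data known. The labels give AAR and RM of a number as biopsies of the same mouse, which would pair them if these labels hold. The differences between mice 004 and 008 in AAR and RM correlated at -0.04 over 2499 members. The scripts were tested on simulated data. Alternatives were 75th percentile scaling, quantile normalization over 4 arrays, normexp (offset 50) on median signals, a stricter filter or none on dim probes, the t-test of the methods, a single fit of 6 arrays, an intensity trend, outlier spots kept, another detection flag, each array left out and the mouse as a block. No annotated genome of the array's build was used.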

Additional observations from a re-analysis of the deposited data

How the results depend on the processing

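For IPC AAR against IPC RM (173 members higher, 163 lower, 154 unequal strand pairs), normexp on median signals gave 66, 44 and 80, the methods' t-test 105, 102 and 18, the stricter filter on dim probes 64 lower and 88 pairs, no filter 70 pairs and the fit of 6 arrays 52 pairs. Each array left out in turn gave 69 to 310 higher, 81 to 204 lower and 0 to 264 pairs. The mouse as a replicate block gave 61 pairs and 306 called members, 293 of which were among the 336 called without it, moved no other count of these by over 1.5 times, and ended the call of the 7 named probes given above with that value. For IPC AAR against sham AAR (57 higher, 40 lower, 0 pairs), 75th percentile scaling gave 97 higher, normexp 22 and 19, no filter as well as the methods' t-test 0 and 0, and a joint fit of 6 arrays 97, 65 and 26 pairs, while arrays left out gave 3 to 261 higher, 2 to 117 lower and 0 to 7 pairs. For IPC RM against sham AAR (0 of each by limma, with 418 members and 128 pairs at an unadjusted p below 0.05), the fit of 6 arrays gave 4 higher and 8 lower, and arrays left out 0 to 207 higher, 0 to 120 lower and 0 to 175 pairs. No paired fit can be made against the sham mice, which share no number with the IPC mice. With the flag for positive and significant signal, both strands were detected at 1179 and 1237 exons in the IPC AAR and 978 and 1241 in the sham AAR. Scaling to the 75th percentile moved the median log2 difference of all probes between IPC AAR and IPC RM from 0.20 to 0.33 and of the members from 0.31 to 0.39, and higher calls from 51.5% to 59.7% of the called members (72.3% under the stricter filter). No called named result reversed under any alternative: of 962 values for IPC AAR against IPC RM, 805 kept their call and 157 lost it, and of 260 against sham AAR 170 kept it and 90 lost it. Only uncalled bright probes changed sign. Under 75th percentile scaling, exon 12118 minus strand gave 1.14, exon 11837 minus 0.72, exon 10151 plus 1.17 and exon 11400 plus 0.91. Exon 12118 minus also gave 0.001 with normexp, and -0.0338 to 0.0084 with an array left out (0.0059 without AAR 004), and exon 10151 plus gave 0.013 with normexp and -0.0228 to 0.0084 with an array left out (0.0084 without RM 004). The cause of these changes was not tested, except that the filters change which probes are tested and a left-out array leaves fewer samples. Signal over background limits 90 of the 163 lower calls, which were dim on both IPC AAR arrays.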
